A study of Sus scrofa with 16 samples.

Results

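Oxidative phosphorylation is carried out by 5 multisubunit complexes of the inner mitochondrial membrane. Complex I and complex II pass electrons from NADH and succinate to ubiquinone, complex III passes them on to cytochrome c, complex IV hands them to oxygen, and complex V, the ATP synthase, uses the resulting proton gradient to make ATP. The heart depends on this pathway for most of its ATP, and most subunits are encoded in the nucleus. The genes described here are those with a symbol beginning with NDUF, UQCR or ATP5, the genes SDHA to SDHD, CYC1 and CYCS, and the COX genes numbered 4 to 8. Where a gene had several probe sets the brightest was taken. Members were thus picked by symbol and brightness, but this group of genes was chosen with earlier results of these data known. This gave 64 of the 6765 genes that the array names by a single symbol: 32 of complex I, 4 of complex II, 2 of complex III, 8 of complex IV, 13 of complex V, cytochrome c (CYCS), 3 complex I assembly factors (NDUFAF1, NDUFAF2 and NDUFAF3) and ATP5S, a coupling factor of the ATP synthase that is not a standing subunit. NDUFA4 was counted with complex IV, of which it is a subunit. CYC1 and the 13 subunits encoded in mitochondrial DNA were not analysed here.

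The samples were left ventricles of Yorkshire x Landrace pigs aged 2 to 3 months, taken 3 weeks after a myocardial infarction (MI) or a sham operation (Sham). Each group held 8 animals, 4 labelled female and 4 labelled male, and all males were neutered. RNA of each animal was run on 1 Affymetrix porcine array. The distance of the tissue from the infarct is not labelled. Values are log2 signals as deposited. A difference of 1 on this scale is a doubling of signal, and signals of different genes were not set against each other because each probe set responds in its own way.

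A few properties of the arrays bear on every value. The arrays fell into a set A of 11 and a set B of 5 (MI 7, MI 8, Sham 6, Sham 7 and Sham 8), found from spike-in controls and absent from the labels, so values within each set are given beside the main results. MI 7 is labelled female, but its signal of EIF1AY, a chromosome Y gene, was 9.51, within the range of the animals labelled male (9.40 to 9.96) and far above the other animals labelled female (3.00 to 3.51). Of 12 cardiomyocyte markers measured, limma passed 0 (0 also had an unadjusted p under 0.05), and their mean per animal was 13.65 to 13.82 in MI and 13.69 to 13.86 in Sham. Of other cells, 1 of 2 macrophage, 3 of 4 T cell, 2 of 4 adipocyte and 2 of 4 erythroid markers rose. Over all probe sets 10.5% passed in either direction. All 12 cardiomyocyte markers had signals over 10, and of probe sets with a mean signal over 10 only 0.982% passed. Of those, 6.2% had an unadjusted p under 0.05, so the count of 0 of 12 is near that background and is not a result about cardiomyocytes. The T cell, adipocyte and erythroid lists each held 1 marker with a lower mean in MI (CD3E -0.26, LEP -0.10 and HBB -0.06). ADIPOQ, at 4.15 to 5.19 over all animals, and CD8B, at 4.77 to 5.58, lay near the highest value of control probe sets without a target in the sample, 4.99. AHSP (4.46 to 6.70), PPARG (4.92 to 6.62) and KDR (4.73 to 6.05) also had animals under that value, so the marker counts rest partly on signals near background. The mean of each list per animal is given for MI against Sham. It was 8.17 to 8.96 against 7.79 to 8.56 for macrophages and 5.53 to 6.06 against 5.33 to 6.01 for T cells. For fat cells it was 6.91 to 7.36 against 6.47 to 6.96, and for erythroid cells 6.41 to 7.82 against 6.26 to 6.78. The 6 fibroblast, 5 endothelial and 3 smooth muscle markers gave 0 passing (1 at an unadjusted p under 0.05, KDR). The part of these cells in the values below was not tested, and in bulk tissue fewer cells of a type and less RNA per cell cannot be told apart.

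Most of the 64 genes were bright: mean signals ran from 7.26 to 14.0 with a median of 12.3, and 59 of them were over 10. In both group means all 64 exceeded the highest single value of control probe sets without a target in the sample (4.99). The means of these 64 genes differed little between infarcted and sham-operated hearts. Of the 64, 36 had a higher mean in MI and 28 a lower one, and the median difference was 0.01 on the log2 scale. The differences ran from -0.27 (ATP5J) to 0.19 (NDUFA2), that is from 1.20-fold lower to 1.14-fold higher. By limma, 0 of 64 passed an adjusted p of 0.05, and 5 had an unadjusted p under 0.05 (NDUFA2, SDHA, NDUFA4, ATP5J and ATP5S). These 5 are 7.8% of the genes, against 23.6% of all probe sets and 6.2% of those with a mean signal over 10. The count is thus near the background of probe sets this bright. In all 64 the groups overlapped.

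The background to that count depends on brightness. Over all 23999 probe sets 10.5% passed in this comparison, but among the 1425 with a mean signal over 10 only 0.982% did, and 59 of the 64 genes belong to those. A count of 0 is near that second share, so it is not a result about the pathway. For 52 of the 64 genes (81.25%) the 95% confidence interval of the difference lay wholly within a 1.25-fold change in either direction, against 45.1% of all probe sets and 60.3% of those with a mean signal over 10. The smallest adjusted p was 0.0679, for ATP5S.

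**Figure D1:**
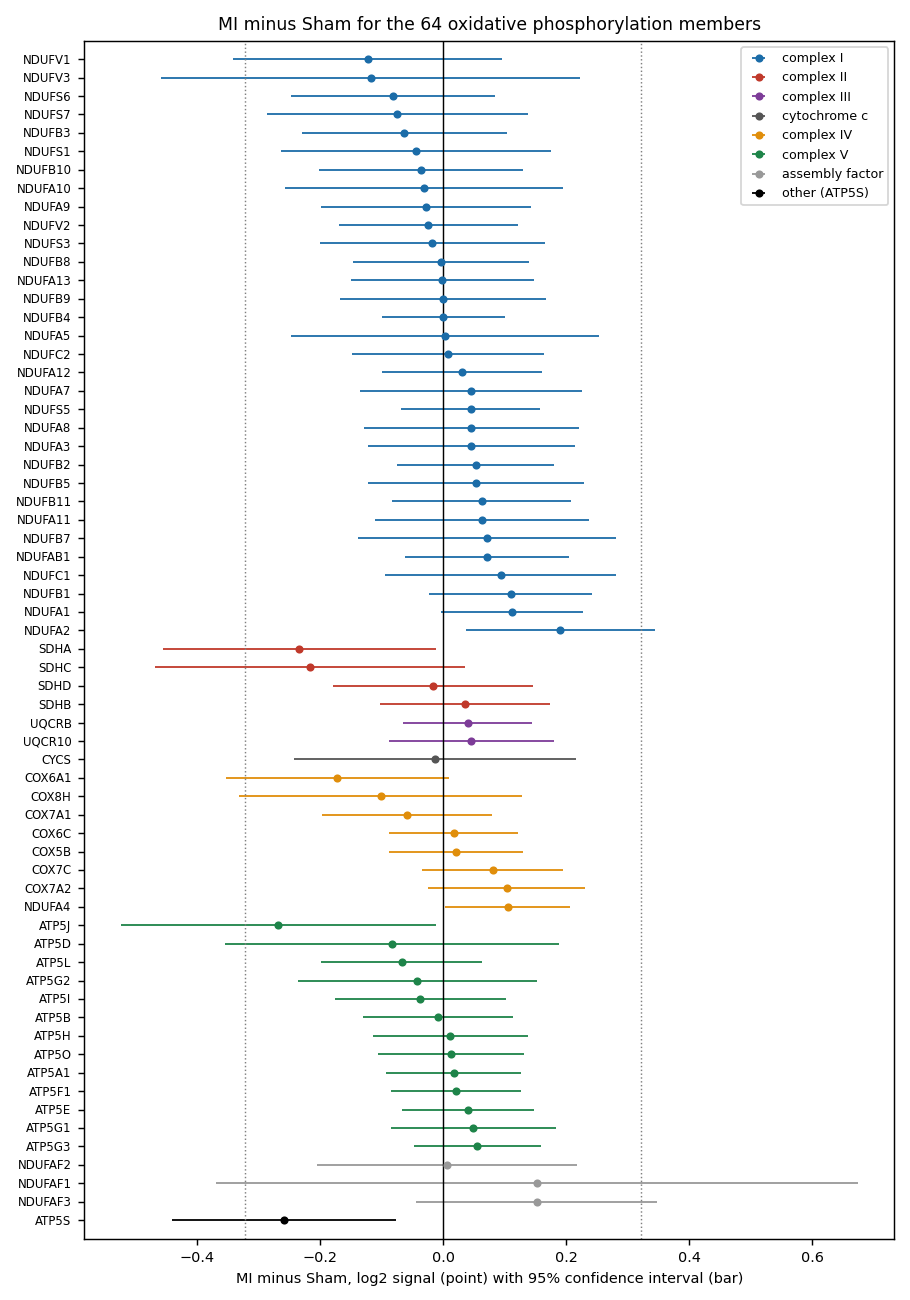
Difference between MI and Sham (log2 signal, horizontal axis) for each of the 64 genes (vertical axis), coloured by complex, with its 95% confidence interval as a bar; dotted lines mark a 1.25-fold change in either direction. Most intervals span 0 and lie between the dotted lines, and the points furthest from 0 are ATP5J, ATP5S, SDHA and SDHC on the lower side and NDUFA2 on the higher side.

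Complex I, which oxidises NADH, gave 18 genes with a higher and 14 with a lower mean in MI, a median difference of 0.01, and 0 of 32 passing (1 at an unadjusted p under 0.05). The intervals of 29 of the 32 lay within a 1.25-fold change. NDUFA2, an accessory subunit of the NADH-oxidising module, had the largest difference. Its signal was 11.26, 11.48 and 11.67 in MI (lowest, median and highest of 8) and 11.05, 11.28 and 11.51 in Sham. All MI animals but MI 7 stood above the Sham mean, and the highest Sham animal, Sham 6, stood above most MI animals. The means were 11.45 ± 0.14 (SD, n = 8) and 11.26 ± 0.15, a difference of 0.19 (SE 0.07, 95% confidence interval 0.04 to 0.34, adjusted p = 0.113). Within set A alone it was 0.26 (adjusted p = 0.0555) and within set B 0.05 (adjusted p = 0.937).

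NDUFA1, a small membrane subunit encoded on chromosome X, ranged from 12.65 to 12.89 (median 12.78) in MI and from 12.53 to 12.77 (median 12.68) in Sham. The groups overlapped over much of their range, and the difference was 0.11 (SE 0.05, adjusted p = 0.223). A second, dimmer probe set of NDUFA1 gave -0.18 (adjusted p = 0.433), the opposite sign. NDUFB1, another small membrane subunit, was 12.48, 12.71 and 12.77 in MI (lowest, median, highest) and 12.44, 12.54 and 12.75 in Sham. Of the MI animals only MI 6 fell below the Sham mean, and the difference was 0.11 (SE 0.06, adjusted p = 0.317). NDUFV1, the core subunit that binds NADH and flavin, had the lowest difference of the complex, -0.12 (SE 0.10, adjusted p = 0.532), with MI animals from 10.86 to 11.62 (median 11.30) and Sham animals from 11.22 to 11.60 (median 11.41). The MI animals spanned the whole Sham range, with -0.23 within set A (adjusted p = 0.302) and 0.08 within set B (adjusted p = 0.897). A second probe set of NDUFB3, named after its values were seen, lay lower still at -0.18 (mean signal 11.16, adjusted p = 0.103). The brightest probe set of NDUFB3 gave -0.06 (adjusted p = 0.696).

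Complex II is the only complex of the chain that is also an enzyme of the citric acid cycle, and all 4 of its subunits were measured. It had 1 gene higher and 3 lower in MI, a median difference of -0.12 and 0 of 4 passing (1 at an unadjusted p under 0.05). The differences between subunits were not tested. SDHA, the flavoprotein that oxidises succinate, was 11.86, 12.04 and 12.55 in MI (lowest, median, highest) and 12.11, 12.42 and 12.59 in Sham. The 5 lowest values of all 16 belonged to MI animals, all of set A, while MI 7 and MI 8 of set B stood among the upper Sham values. The means were 12.13 ± 0.26 and 12.37 ± 0.16 (SD, n = 8 each), so MI differed by -0.23 (SE 0.10, 95% confidence interval -0.46 to -0.01, adjusted p = 0.183).

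The difference of SDHA was -0.31 within set A (adjusted p = 0.0599) and -0.00 within set B (adjusted p = 0.997). SDHA itself was higher in set B than in set A by 0.33 (SE 0.09, adjusted p = 0.0245), a call that was lost without MI 1, MI 2, MI 7 or MI 8 (adjusted p = 0.0612, 0.0693, 0.0653 and 0.0576). The value of -0.00 within set B came from a fit with group only. With sex in a fit over both sets, SDHA differed by -0.31 in set A and 0.08 in set B. In that fit the test of the difference between the sets in the MI effect gave 0.39 (SE 0.16, unadjusted p = 0.0265, adjusted p = 0.39). A second probe set of SDHA gave -0.15 between MI and Sham (adjusted p = 0.593).

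SDHC, 1 of the membrane anchors that bind ubiquinone and haem, was 10.41, 10.84 and 11.10 in MI and 10.52, 11.09 and 11.37 in Sham (lowest, median, highest). Only MI 2 exceeded the Sham mean, although Sham 7 was lower than every MI animal but MI 5. The difference was -0.22 (SE 0.12, 95% confidence interval -0.47 to 0.04, adjusted p = 0.294), with -0.25 within set A and -0.11 within set B (adjusted p = 0.275 and 0.895). The other membrane anchor, SDHD, was 12.10 to 12.45 (median 12.23) in MI and 11.91 to 12.48 (median 12.30) in Sham, a difference of -0.02 (SE 0.08, adjusted p = 0.931). SDHB, the iron-sulphur subunit, was 12.86 to 13.21 (median 12.99) in MI and 12.77 to 13.12 (median 13.00) in Sham, a difference of 0.04 (SE 0.06, adjusted p = 0.804). For SDHB and SDHD the groups overlapped almost fully, and the direction of each depended on the set: -0.03 in set A and 0.12 in set B for SDHB, and -0.08 and 0.16 for SDHD.

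**Figure D2:**
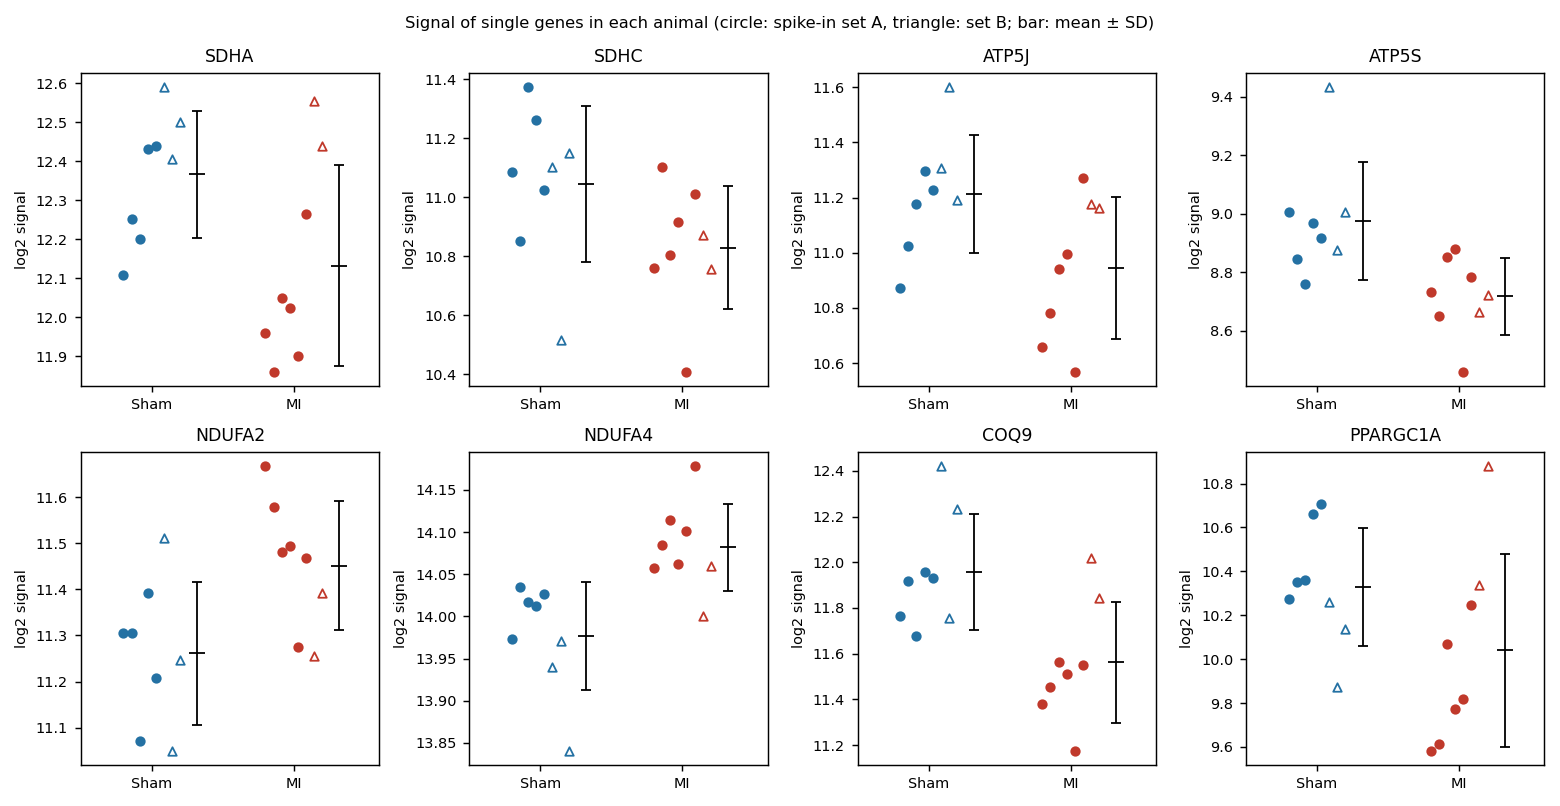
Log2 signal (vertical axis) in each animal of the Sham and MI groups for 6 oxidative phosphorylation genes and for COQ9 and PPARGC1A; filled circles are arrays of set A, open triangles arrays of set B, and bars the mean ± SD (n = 8 each). The SDHA values of MI animals are lower in set A and among the Sham values in set B, NDUFA4 lies above the Sham mean in 8 of 8 MI animals, ATP5S lies below it in all of them, and PPARGC1A is ordered oppositely in set A and set B.

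Complex III was represented by only 2 small subunits, UQCR10 and UQCRB, both a little higher in MI and neither passing (0 at an unadjusted p under 0.05). UQCR10 was 12.59 to 12.85 (median 12.79) in MI and 12.46 to 12.85 (median 12.74) in Sham, a difference of 0.05 (SE 0.06, adjusted p = 0.729). UQCRB was 13.03 to 13.18 (median 13.06) in MI and 12.90 to 13.13 (median 13.03) in Sham, a difference of 0.04 (SE 0.05, adjusted p = 0.692). The 2 groups ended at nearly the same highest value for both genes, and both 95% intervals lay within a 1.25-fold change. CYCS, the electron carrier between complexes III and IV, was 11.49 to 12.27 (median 11.97) in MI and 11.63 to 12.24 (median 11.95) in Sham, a difference of -0.01 (SE 0.11, adjusted p = 0.961). Its lowest value, in MI 8, lay in set B, and within set A alone the difference was 0.15 (adjusted p = 0.432).

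Complex IV, cytochrome c oxidase, had 5 genes higher and 3 lower, a median difference of 0.02 and 0 of 8 passing (1 at an unadjusted p under 0.05). NDUFA4 was 14.00, 14.07 and 14.18 in MI (lowest, median, highest) and 13.84, 13.99 and 14.03 in Sham. All 8 MI animals stood above the Sham mean, and only the lowest of them, MI 7, fell within the upper Sham values. The means were 14.08 ± 0.05 and 13.98 ± 0.06 (SD, n = 8 each). MI thus differed by 0.11 (SE 0.05, adjusted p = 0.192), about 1.08-fold. Within set A the difference was 0.08 and within set B 0.11 (adjusted p = 0.428 and 0.79).

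Several subunits of complex IV exist as a form typical of heart and skeletal muscle and a form found in most tissues. COX7A1, the muscle form of subunit 7A, was 12.81 to 13.07 (median 13.04) in MI and 12.79 to 13.20 (median 13.09) in Sham, a difference of -0.06 (SE 0.07, adjusted p = 0.657). COX7A2, its widespread form, was 12.21 to 12.60 (median 12.34) in MI and 12.09 to 12.34 (median 12.29) in Sham, a difference of 0.10 (SE 0.06, adjusted p = 0.325). Of the MI animals only MI 6 stood above the Sham mean of COX7A1 and only MI 7 stood below that of COX7A2. Neither gene passed, and the difference between them was not tested.

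COX6A1, the widespread form of subunit 6A, had the lowest difference of the complex. It was 10.55, 10.81 and 11.13 in MI and 10.87, 10.97 and 11.15 in Sham (lowest, median, highest), with MI 7 and MI 8, both of set B, at the bottom. The difference was -0.17 (SE 0.09, adjusted p = 0.238), -0.11 within set A and -0.40 within set B (adjusted p = 0.51 and 0.405). COX8H, the muscle form of subunit 8, differed by -0.10 (SE 0.11, adjusted p = 0.641), and COX7C, a small subunit without tissue forms, by 0.08 (SE 0.05, adjusted p = 0.412). COX5B and COX6C, the remaining subunits, each differed by 0.02 (adjusted p = 0.863 and 0.885).

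Complex V had 7 genes higher and 6 lower, a median difference of 0.01 and 0 of 13 passing (1 at an unadjusted p under 0.05). The catalytic subunits alpha (ATP5A1) and beta (ATP5B) differed by 0.02 (SE 0.05) and -0.01 (SE 0.06). ATP5J, coupling factor 6 of the stalk that holds the catalytic head in place, had the lowest difference of the complex; it was not tested against theirs. Its signal was 10.57, 10.97 and 11.27 in MI and 10.87, 11.21 and 11.60 in Sham (lowest, median, highest). The 3 lowest values were those of MI 5, MI 1 and MI 2, and only MI 6 exceeded the Sham mean.

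For ATP5J the means were 10.94 ± 0.26 and 11.21 ± 0.21 (SD, n = 8 each), so MI differed by -0.27 (SE 0.12, 95% confidence interval -0.52 to -0.01, adjusted p = 0.187), or 1.20-fold lower. It was -0.30 within set A and -0.20 within set B (adjusted p = 0.177 and 0.704), and -0.27 in females and -0.26 in males. A second probe set of ATP5J passed at -0.26 (adjusted p = 0.00696), but its mean signal of 3.29 lies under the background of 4.99, so it does not measure a level.

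The c subunit, which forms the rotating ring of the ATP synthase, is encoded by 3 genes for the same mature protein, and none of them passed (0 at an unadjusted p under 0.05). ATP5G1 was 13.08 to 13.51 (median 13.30) in MI and 13.00 to 13.39 (median 13.26) in Sham, a difference of 0.05 (SE 0.06, adjusted p = 0.706). ATP5G2 was 11.85 to 12.46 (median 12.17) against 11.86 to 12.49 (median 12.24), a difference of -0.04 (SE 0.09, adjusted p = 0.841). ATP5G3 was 13.40 to 13.62 (median 13.49) against 13.35 to 13.54 (median 13.43), a difference of 0.06 (SE 0.05, adjusted p = 0.549). Each MI range thus covered most of its Sham range. ATP5L, subunit g of the membrane part, was 12.70 to 12.93 (median 12.89) in MI and 12.66 to 13.08 (median 12.98) in Sham. No MI animal exceeded the Sham mean, Sham 7 was the lowest of all, and the difference was -0.07 (SE 0.06, adjusted p = 0.573). ATP5E, the epsilon subunit of the catalytic head, differed by 0.04 (SE 0.05, adjusted p = 0.699).

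ATP5S, the coupling factor outside the complexes, was named after its values were seen. It was 8.46, 8.73 and 8.88 in MI and 8.76, 8.94 and 9.43 in Sham (lowest, median, highest). All 8 MI animals stood below the Sham mean, and the ranges overlapped between 8.76 and 8.88. The difference was -0.26 (SE 0.09, 95% confidence interval -0.44 to -0.08, adjusted p = 0.0679), and it passed without Sham 2 (-0.29, adjusted p = 0.0432). Within set A it was -0.18 and within set B -0.41 (adjusted p = 0.245 and 0.492). A second probe set of ATP5S, with a mean signal of 7.50, gave 0.13 (adjusted p = 0.502).

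The 3 complex I assembly factors had higher means in MI, and 0 passed (0 at an unadjusted p under 0.05). NDUFAF3 was 9.29 to 9.64 (median 9.52) in MI and 8.88 to 9.62 (median 9.43) in Sham, a difference of 0.15 (SE 0.09, adjusted p = 0.351). NDUFAF1, at 7.51 to 8.63 (median 8.29) in MI and 6.59 to 8.46 (median 8.28) in Sham, differed by 0.15 (SE 0.25, adjusted p = 0.774), and without Sham 7, its lowest animal, by -0.07 (adjusted p = 0.853). NDUFAF2 differed by 0.01 (SE 0.10, adjusted p = 0.98). In all, 14 of the 64 genes had other probe sets, 17 in number, of which 13 were above background in a group mean. Of the 17, 10 had the same sign as the brightest probe set of the gene and 7 the opposite sign, and the dim one of ATP5J was the only one that passed.

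**Figure D3:**
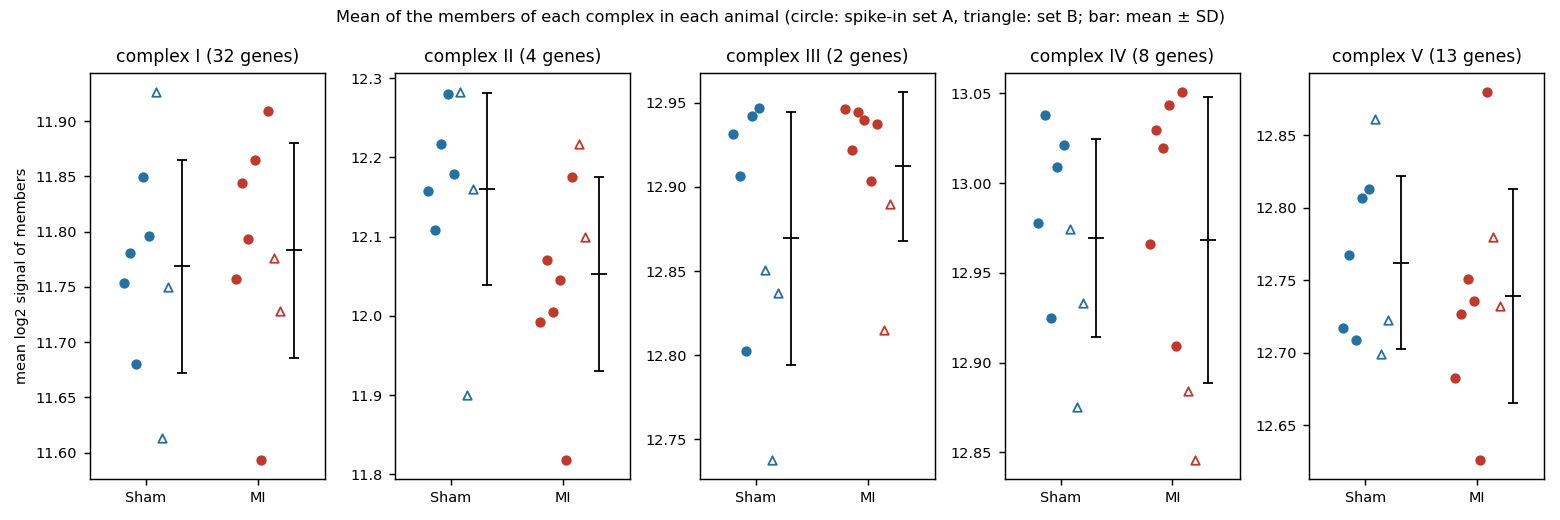
Mean log2 signal of the genes of each complex (vertical axis, a different range in each panel) in each animal of the Sham and MI groups; filled circles are arrays of set A, open triangles arrays of set B, and bars the mean ± SD over animals (n = 8 each). The groups overlap in all 5 panels, and the means of complexes III and IV are lower in most set B arrays.

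The mean over the genes of a complex, taken in each animal as a description, placed the groups close together. For complex I it was 11.59 to 11.91 in MI and 11.61 to 11.93 in Sham, with means of 11.78 ± 0.10 and 11.77 ± 0.10 (SD, n = 8 each). For complex II it was 12.05 ± 0.12 in MI and 12.16 ± 0.12 in Sham, for complex III 12.91 ± 0.04 and 12.87 ± 0.08, for complex IV 12.97 ± 0.08 and 12.97 ± 0.06, and for complex V 12.74 ± 0.07 and 12.76 ± 0.06. The widest gap between the group means was that of complex II, -0.11, a little under its SD. In set A its mean was 12.02 in MI (6 animals) against 12.19 in Sham (5 animals), and in set B 12.16 (2 animals) against 12.11 (3 animals), so the order of the groups differed between the sets.

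Animals of 1 group differed from each other more than the groups did. The mean over all 64 genes was 11.98 ± 0.08 in MI and 11.98 ± 0.09 in Sham. The lowest animals were MI 5 and Sham 7, both at 11.82, and in each only 11 of the 64 genes were above their own mean over the 16 animals. At the other end MI 6 stood at 12.10 with 54 genes above their mean, and Sham 6 at 12.11 with 49. The lowest and the highest animals thus came from both groups. MI 5 and Sham 7 also had the highest smooth muscle marker means, 10.5 in both, and MI 6 the second lowest, 9.60; whether this has a part in the spread was not tested.

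**Figure D4:**
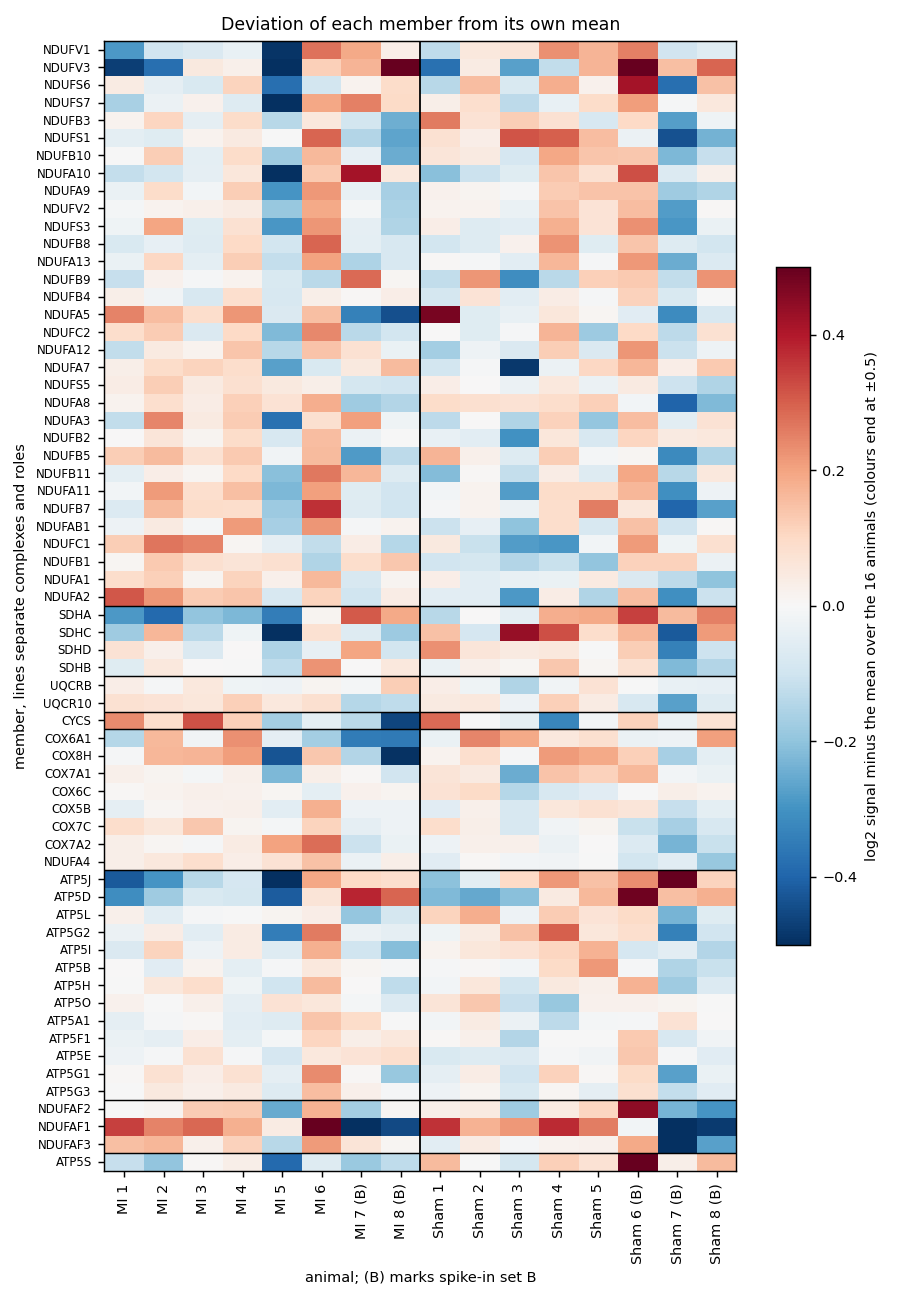
Log2 signal of each of the 64 genes (rows, ordered by complex) in each animal (columns, MI left and Sham right of the vertical line) minus the mean of that gene over the 16 animals; (B) marks arrays of set B. MI 5 and Sham 7 are blue and MI 6 and Sham 6 red through most rows, and no block of rows separates MI from Sham.

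The genes also varied together between animals once group, sex and set were taken out. Over these residuals the median Pearson correlation between pairs was 0.41 for the 2016 pairs of the 64 genes, 0.0068 over all pairs of genes on the array and 0.02 over pairs of genes with a mean signal over 10, each over the same 16 arrays. It was 0.50 within complex I, 0.47 within complex V and 0.49 between complexes II and V. Within complex IV it was 0.06. Of its subunits, COX5B, COX8H and COX7A1 had median correlations of 0.63, 0.52 and 0.47 with the other genes, while COX7A2 had 0.10. NDUFS3, a core subunit of complex I, followed the others most closely, with a median correlation of 0.67 with the other genes. NDUFB1, COX6C and COX6A1 ran slightly against the rest (-0.22, -0.16 and -0.14). These values describe arrays that share normalization and RNA handling, and the correlations carry no test.

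The sexes were compared next, as labelled. In females 45 of the 64 genes (70.3%) had a higher mean in MI, against 50.7% of all probe sets and 51.3% of those with a mean signal over 10. In males 34 (53.1%) had a lower one, against 50.6% and 46.7%. The median differences were 0.04 in females and -0.01 in males. The genes vary together between animals, so these are not counts of separate results. By limma, 0 passed in females (1 at an unadjusted p under 0.05), where 2.85% of all probe sets did, and 0 passed in males (5 at an unadjusted p under 0.05), where 3.40% did. Of the probe sets with a mean signal over 10, 0.140% passed in females and 0.281% in males, so counts of 0 are near the background of genes this bright. In females 1.6% of the 64 had an unadjusted p under 0.05, against 16.2% of all probe sets and 3.5% of those with a mean signal over 10. In males it was 7.8%, against 19.0% and 8.6%. NDUFA2 differed by 0.32 in females (adjusted p = 0.118) and 0.07 in males (adjusted p = 0.762). SDHA differed by -0.09 in females and -0.38 in males (adjusted p = 0.847 and 0.173), and SDHC by -0.13 and -0.31 (adjusted p = 0.787 and 0.336).

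The difference between the sexes in the MI effect passed for 0 of the 64 genes (1 at an unadjusted p under 0.05), as for 0% of all probe sets. That gene, named after its values were seen, was NDUFS6, a zinc-binding accessory subunit of complex I. It differed by 0.17 in females and -0.33 in males, an interaction of 0.50 (SE 0.16, unadjusted p = 0.00551, adjusted p = 0.794). The 4 Sham males, at 10.49 to 10.76, stood above every MI animal, and the 4 Sham females were at 9.96 to 10.37. The set and the sex were not balanced: by the labels, set B held 0 MI males and 2 MI females. The sex-specific differences thus rest on set A alone for animals labelled as MI males. MI 7, in set B, was kept as female although its EIF1AY signal lay in the male range. All female, male and interaction values given here and below therefore rest on its label. Without MI 7, and with the set as a block, NDUFA2 passed in females (0.40, adjusted p = 0.0488).

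**Figure D5:**
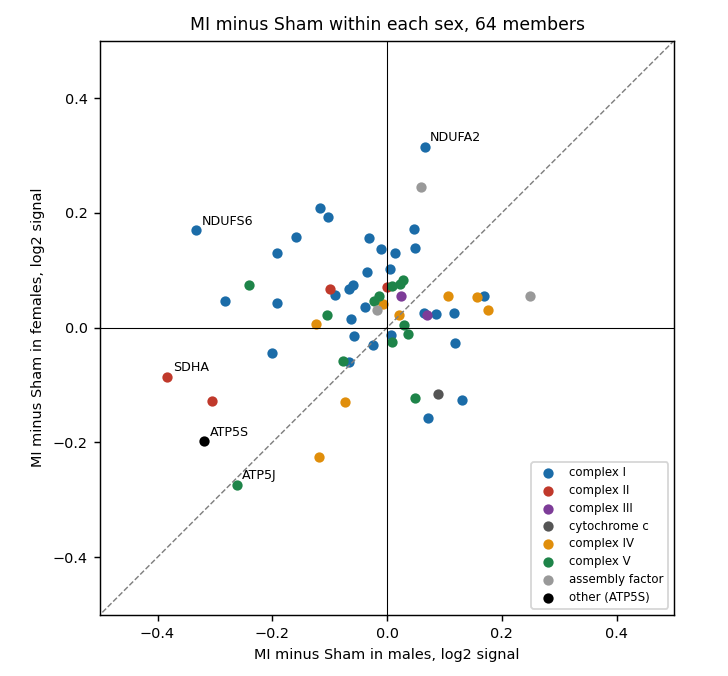
Difference between MI and Sham in females (vertical axis) against that in males (horizontal axis), both in log2 signal, for the 64 genes, coloured by complex; the dashed line marks equal differences. SDHA and NDUFS6 lie furthest to the left (-0.38 and -0.33 in males) and NDUFA2 highest (0.32 in females), and no point passed in either sex.

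Over both groups together 54 of the 64 genes had a lower mean in females than in males, with a median difference of -0.06, against 50.6% of all probe sets and 56.9% of those with a mean signal over 10 that were lower. Of the 64, 0 passed by limma and 0 had an unadjusted p under 0.05, where 0.0583% and 3.1% of all probe sets did. Since the genes vary together between animals, such a shared direction counts the same animals many times. Of the X-linked genes, NDUFA1 differed by 0.01 (SE 0.05) and NDUFB11 by -0.11 (SE 0.07), both with an adjusted p of 0.998.

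The arrays of set B differed from those of set A in more of these genes than MI differed from Sham. With group and sex in the fit, 9 of 64 passed (19 at an unadjusted p under 0.05), where 17.6% of all probe sets and 24.8% of those with a mean signal over 10 passed, so the share of 14.1% was not above the background. The 19 are 29.7% of the genes, against 30.8% of all probe sets and 40.2% of those with a mean signal over 10. The signal of the actin control at its 3' end minus that at its 5' end, a sign of RNA quality, also separated the sets. It was 2.21 to 3.04 in set A and 1.21 to 1.54 in set B. The same measure of the GAPDH control overlapped between the sets, at -0.32 to -0.10 in set A and -0.20 to 0.13 in set B. The part of RNA quality in these differences was not tested. Higher in set B were NDUFV3, an accessory subunit of complex I (0.54, SE 0.14, adjusted p = 0.0133), ATP5D, the delta subunit of the ATP synthase (0.44, SE 0.11, adjusted p = 0.0118), and SDHA. Lower were NDUFAF1 (-0.97, SE 0.16, adjusted p = 0.00105), NDUFA5 (-0.37), NDUFS1, a core iron-sulphur subunit (-0.33), NDUFA8 (-0.29), NDUFB5 (-0.28) and UQCR10 (-0.21), with adjusted p from 0.00825 to 0.0287 for these 5. Without Sham 7 only 4 of the 64 passed. With the set in the fit the MI differences of these 9 genes ran from -0.19 (SDHA) to 0.03 (NDUFAF1), and 0 passed.

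Whether MI acted alike in both sets was tested as an interaction with sex in the fit, chosen after the data had been seen. It passed for 0 of the 64 genes (3 at an unadjusted p under 0.05: CYCS, SDHA and NDUFC1), as for 0.00833% of all probe sets. Of the 23999 probe sets 2590 had an unadjusted p under 0.05 in this test. CYCS differed between MI and Sham by 0.14 within set A and by -0.42 within set B (difference between the sets, adjusted p = 0.37), and NDUFC1, a small complex I subunit, by 0.23 and -0.20 (adjusted p = 0.418). Set B holds only 2 MI animals, so these values rest on very few arrays.

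Genes around the complexes were read from lists of assembly factors, regulators, carriers and ubiquinone metabolism. Of 45 further assembly factors 15 were measured, and 1 rose and 1 fell, a share of 13.3% that is near the 10.5% of all probe sets. LYRM7, which helps to insert the iron-sulphur protein into complex III, was 4.67 to 5.22 in MI and 3.89 to 4.79 in Sham, a difference of 0.55 (SE 0.12, adjusted p = 0.00819). Both of its group means, 4.98 and 4.44, lie under the background of 4.99, so its level was hardly measured. FOXRED1, an assembly factor of complex I, was 7.11 to 7.72 in MI and 7.43 to 8.36 in Sham and fell by 0.39 (SE 0.12, adjusted p = 0.0482).

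The call on FOXRED1 was lost when any of MI 1 to MI 6, Sham 1, or Sham 5 to Sham 8 was left out, with adjusted p from 0.0508 to 0.097. Its second probe set gave -0.14 (adjusted p = 0.594). FOXRED1 differed by -0.64 in males (adjusted p = 0.0469) and -0.13 in females (adjusted p = 0.786), and the difference between the sexes did not pass (0.52, SE 0.24, unadjusted p = 0.0445, adjusted p = 0.794). FOXRED1 was high in the Sham animals of set B and low in most MI animals of set A, with an overlap between the groups.

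Of 20 genes that feed or make ubiquinone, the carrier between complexes I or II and complex III, 10 were measured, 0 rose and 1 fell (3 at an unadjusted p under 0.05: COQ9, ETFA and ETFDH). The 1 of 10 that passed is also near the 10.5% of all probe sets, of which 23.6% had an unadjusted p under 0.05. COQ9, ETFA and ETFDH all had mean signals over 10, however. Among probe sets that bright only 0.982% passed and 6.2% had an unadjusted p under 0.05, so these counts lie above that background. COQ9, a lipid-binding protein needed to make ubiquinone, was 11.18, 11.53 and 12.02 in MI and 11.68, 11.92 and 12.42 in Sham (lowest, median, highest). All MI animals of set A stood below all Sham animals, while MI 7 and MI 8 stood within the Sham range. The means were 11.56 ± 0.26 and 11.96 ± 0.25 (SD, n = 8 each), so that COQ9 fell by 0.39 (SE 0.11, adjusted p = 0.0268), or 1.31-fold. Within set A the difference was -0.43 (adjusted p = 0.0169) and within set B -0.20 (adjusted p = 0.771). It was -0.68 in males (SE 0.15, adjusted p = 0.0224) and -0.11 in females (SE 0.15, adjusted p = 0.799), and the test of the difference between the sexes did not pass (0.57, SE 0.21, unadjusted p = 0.0168, adjusted p = 0.794).

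The call on COQ9 was lost without MI 1, MI 2, MI 5, Sham 5, Sham 6 or Sham 8, with adjusted p from 0.0515 to 0.0564 and differences from -0.38 to -0.35. It was also lost when only probe sets with a mean signal over 10 were kept (adjusted p = 0.333). Of the other probe sets of COQ9, 1 gave -0.12 (adjusted p = 0.699), and a dim one, close to the background, gave -0.60 (adjusted p = 0.00696). ETFA, a subunit of the flavoprotein that brings electrons from fatty acid oxidation to ubiquinone, differed by -0.21 (SE 0.07, adjusted p = 0.0582). It passed with the set as a block (-0.23, adjusted p = 0.0299) and without Sham 7 (-0.26, adjusted p = 0.0142). ETFDH, the enzyme that takes electrons over from that flavoprotein, differed by 0.15 (SE 0.07, adjusted p = 0.165) and was named after its values were seen.

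Of 13 carriers, pores and related genes 12 were measured and 0 passed (1 at an unadjusted p under 0.05). SLC25A6, an exchanger of ADP and ATP, differed by -0.23 (SE 0.10, adjusted p = 0.183), and CKMT2, the mitochondrial creatine kinase of muscle, by 0.14 (SE 0.07, adjusted p = 0.254). Of 24 regulators of mitochondrial biogenesis 9 were measured and 0 passed (0 at an unadjusted p under 0.05). PPRC1, a relative of PPARGC1A, differed by -0.12 (SE 0.08, adjusted p = 0.414).

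PPARGC1A, the coactivator that drives transcription of respiratory genes, differed by -0.29 (SE 0.18, adjusted p = 0.36). Its values were ordered oppositely in the sets. In set A the 6 MI animals were at 9.58 to 10.25 and the 5 Sham animals at 10.28 to 10.71, with no overlap and a difference of -0.69 (adjusted p = 0.00795). In set B both MI animals (10.34 and 10.88) stood above the 3 Sham animals (9.87 to 10.26), a difference of 0.52 (adjusted p = 0.436). The test of the difference between the sets, with sex in the fit, gave 1.37 (SE 0.25, unadjusted p = 6.24e-05, adjusted p = 0.105). As plain differences between group means, complex II stood at -0.17 in set A and 0.04 in set B, and the mean over all 64 genes at -0.00 and -0.02; the relation of these genes to PPARGC1A was not tested.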

How the data were processed

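Total RNA of frozen, crushed myocardium was hybridised to 1 array per animal, per the labels. The deposited values are log2 signals with equal array medians (6.24); the authors' normalization is not given in the sources used here, and the values were used as deposited. Of 24123 probe sets 124 controls were set aside. R 4.3.3 with limma 3.58.1 was fitted to the other 23999 with group and sex combined into 4 coefficients (12 residual degrees of freedom), and p-values, two-sided, were adjusted by Benjamini-Hochberg over all of them; passing means an adjusted p under 0.05. The difference between MI and Sham is the mean of the female and the male difference. Set A and set B were split at the widest gap in the poly-A minus the hybridisation spike-in signals. Values of single genes within set B came from a fit with group only, without sex, except those given with the interaction of group and set. Symbols came from GEO's platform annotation, and updating them through Entrez identifiers changed no gene. The fit was tested on simulated data.

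The genes, the related lists and the tests were chosen with earlier results of these data known. Genes were named by a rule: all of complex II, CYCS, the 4 lowest p in each other complex and among the assembly factors, pairs of isoforms, any gene passing a comparison, and in each related list those passing and the 2 with the lowest p. Nothing says whether arrays or animals shared other steps, and the number of arrays limits the precision. Alternatives to the fit are given in the closing section.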

Additional observations from a re-analysis of the deposited data

Results flagged for a closer look

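Among 76 groups of 8 animals examined, 7 had an animal standing apart, by the gap to its nearest neighbour as a share of the group's range (critical value 0.526). Chance flags about 1 in 20 such groups. Of single genes, MI 6 was low for NDUFB1 in the MI group (12.48 against 12.64 for the next animal, share 0.569), where the same animal was high for most other genes. Sham 6 was high for ATP5E (13.64 against 13.50, share 0.668) and for ATP5S (9.43 against 9.01, share 0.632). Sham 7 was low for NDUFAF1 (6.59 against 7.60, share 0.544), and Sham 1 was high for NDUFA5 (10.83 against 10.41, share 0.528). Of the means over a complex, that of complex II was low in Sham 7 (11.90 against 12.11, share 0.542) and that of complex III was low in MI 7 (12.82 against 12.89, share 0.569). Sham 6, Sham 7 and MI 7 are arrays of set B.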

How the results depend on the processing

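Over 32 alternatives the count of the 64 genes passing between MI and Sham stayed at 0 or 1. It was 1 with probe sets averaged per gene (ATP5J, adjusted p = 0.021), with an offset of 32 (NDUFA4, adjusted p = 0.0397) and, with each animal left out in turn, from 0 to 1. The numbers in the labels are shared by the groups but not all same-number correlations were over 0.1 (they ran from -0.07 to 0.46, with 2 of 8 MI animals closest to their own number); with this number as a replicate block 1 gene passed (ATP5J, adjusted p = 0.0442). In females the count was 1 without MI 7 and with the set as a block. The median of complex II was -0.12, and 0.0614 in set B alone. For set B against set A the count of 9 became 14 with the offset and 2 at an adjusted p under 0.01, and ran from 4 to 11 with single animals left out.

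In set B alone, fitted with group only, the sign turned for ATP5G1 (-0.0215), ATP5G2 (0.0798), NDUFAF2 (-0.0549), NDUFV1 (0.0779) and SDHD (0.16). It also turned for PPARGC1A (0.52, against -0.29 over both sets and -0.69 in set A). Both MI animals of set B are labelled female, so group and sex are hard to separate there. With sex in the fit of the group and set interaction, the set B values of ATP5G1 (0.06) and NDUFAF2 (0.0145) did not turn. Those of the other genes just named did. In set A alone the sign turned for CYCS (0.15) and SDHB (-0.0281), and with the set as a block for NDUFAF2 (-0.00354). With array weights it turned for CYCS (0.054) and NDUFAF2 (-0.0116), and with probe sets averaged for COX7C (-0.0271) and NDUFA1 (-0.0354). With single animals left out ATP5G2 ran from -0.092 to 0.0115, CYCS from -0.0634 to 0.0525, NDUFAF1 from -0.0694 to 0.24, NDUFAF2 from -0.0528 to 0.0708 and SDHD from -0.06998 to 0.0246. The cause was not tested. Adjusted p over the alternatives ran from 0.021 to 0.707 for ATP5J, 0.0397 to 0.79 for NDUFA4, 0.0432 to 0.729 for ATP5S, 0.00874 to 0.771 for COQ9, 0.0113 to 0.512 for FOXRED1 and 0.0142 to 0.771 for ETFA. Of 1321 comparisons of single genes with an alternative, 1224 kept sign and side of the threshold. Restricting to probe sets with a mean signal over 10 and the interaction of group and set were chosen after seeing the data. Background signal limits LYRM7 and the second probe set of ATP5J.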
